A study of Bos taurus with 12 samples.

Results

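BACH1, MAFF and UROS are 3 transcripts of the heme axis, chosen by name and identifier, among 27607 Ensembl genes counted in peripheral white blood cells (PWBCs) of 12 beef heifers. Their identifiers are ENSBTAG00000004139 for BACH1, ENSBTAG00000021435 for MAFF and ENSBTAG00000005791 for UROS. All 3 passed the filter on low counts, which kept 13012 genes. In the RefSeq annotation of ARS-UCD2.0, a cattle assembly other than the one the reads were counted on, BACH1 lies between the protein-coding genes GRIK1 and MAP3K7CL. MAFF lies between PLA2G6 and TMEM184B there, and UROS between EDRF1 and BCCIP.

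The heifers were Simmental-Angus crosses bred under a single synchronization protocol. Each received 100 µg GnRH and an intravaginal progesterone device (CIDR) for 7 days, then 25 mg dinoprost, and was inseminated with semen of a single Angus sire about 54 hours after the device came out. The 6 fertile heifers conceived to that first artificial insemination (AI), and the 6 subfertile heifers were still not pregnant after AI and a further 60 days with bulls. Blood was drawn 2 days before AI, and each heifer gave 1 poly(A) RNA library. The reproductive tract score (RTS), a rating of pubertal maturity, was 5 in 1 heifer of each group and 4 in the others, and the age of each heifer was not used here.

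Heme is the iron-holding ring of haemoglobin, catalase and the cytochromes, and it is toxic when free. UROS, uroporphyrinogen III synthase, closes the ring in the middle of the synthesis pathway, and its inherited loss causes congenital erythropoietic porphyria. BACH1 is a transcription factor that represses genes of heme and iron handling while heme is scarce. Heme binds BACH1, releases it from DNA and leads to its degradation. BACH1 binds DNA as a pair with a small MAF protein, MAFF, MAFG or MAFK. The activator NRF2, encoded by NFE2L2, pairs with the same small MAF proteins on the same kind of element, and MAFF is itself induced by inflammatory and stress signals.

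Counts on genes summed to between 14010736 and 21278761 per library. The PWBC label was met by T cell and B cell markers, since CD3E lay between 322 and 740 CPM (counts relative to the library total, scaled by the TMM normalization factor) and CD79A between 335 and 719 CPM over the 12 libraries. Platelet RNA was also present, and its markers set the fertile library LM1330 apart. The summed level of 11 platelet markers was 12423 CPM there and between 745 and 4042 CPM in the other libraries. The libraries also fell into 2 sets of 6 by the share of counts held by their most abundant gene, ENSBTAG00000043561, at 1.82% to 3.71% in the low set and 5.46% to 7.40% in the high set. Each set held 3 fertile and 3 subfertile heifers. In RNA from all PWBCs of a heifer together, fewer cells of a type and less RNA per cell cannot be told apart.

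A gene counted as called when it passed the study's own limits, P of 0.05 or less and absolute log2 fold change (log2FC, subfertile against fertile) of 0.5 or more, in the quasi-likelihood test of edgeR. At these thresholds 1 of the 3 members was called, MAFF, against 1.4% of all genes tested (182 genes, 96 or 0.738% in the lower direction and 86 or 0.661% in the higher). No gene passed an adjusted P of 0.05 in edgeR, where 341 genes (2.62%) had an unadjusted P of 0.05 or less. DESeq2 and voom also passed none after adjustment, with 417 (3.21%) and 299 (2.3%) genes at an unadjusted P of 0.05 or less. MAFF and UROS are among the transcripts the study singled out as differing between the groups, and BACH1 and MAFF among its candidate regulators. Those choices were made on these same libraries, so the tests of the members are not independent evidence of their direction.

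**Figure D1:**
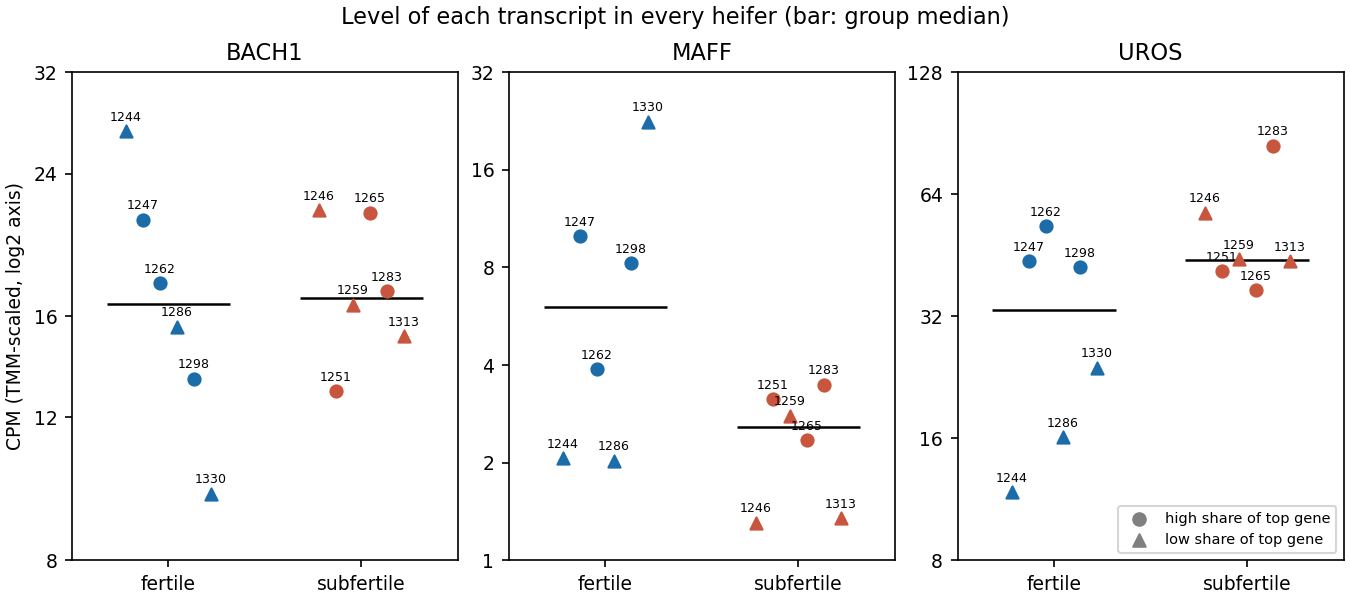
Level of BACH1, MAFF and UROS in each of the 12 heifers, in CPM on a log2 axis, by fertility group. Each point is 1 heifer with its library number, bars are group medians, and circles and triangles mark libraries with a high and a low share of the most abundant gene. All 6 subfertile heifers lie below the fertile median for MAFF (6.06 CPM) and above it for UROS (33.1 CPM), while the subfertile values of BACH1 lie within the fertile range.

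The subfertile BACH1 levels lay within the fertile range. Its level was 27.1, 21.0, 17.6, 15.5, 13.4 and 9.67 CPM in fertile heifers LM1244, LM1247, LM1262, LM1286, LM1298 and LM1330. In subfertile heifers LM1246, LM1251, LM1259, LM1265, LM1283 and LM1313 it was 21.6, 12.9, 16.5, 21.5, 17.2 and 15.1 CPM. The highest and the lowest value were both fertile, and every subfertile value lay between them. The fertile mean was 17.4 ± 6.11 CPM (SD, n = 6) and the subfertile mean 17.5 ± 3.48 CPM (SD, n = 6). The log2FC of BACH1 was 0.0089 with a standard error of 0.22 and a 95% interval of -0.46 to 0.48 (edgeR, adjusted P = 0.9998). This interval leaves room for a group difference of up to about 1.40-fold higher or 0.725 times the fertile level. The unadjusted edgeR P was 0.968, and the two-sided exact permutation test over all splits of the heifers into 6 and 6 gave P = 0.820.

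MAFF, the small MAF partner, was lower in the subfertile group. It reached 2.06, 9.99, 3.88, 2.03, 8.24 and 22.5 CPM in fertile heifers LM1244, LM1247, LM1262, LM1286, LM1298 and LM1330. In subfertile heifers LM1246, LM1251, LM1259, LM1265, LM1283 and LM1313 it reached 1.3, 3.14, 2.79, 2.35, 3.47 and 1.34 CPM. The subfertile heifers formed a narrow low band, whereas 4 fertile heifers lay above all of them and LM1244 and LM1286 lay within the band. Behind these levels stood 39 to 373 counts in fertile and 25 to 60 counts in subfertile libraries. The subfertile counts of BACH1 were 181 to 464 and those of UROS 522 to 1458, while in LM1330 MAFF had 373 counts beside 160 for BACH1. All 6 subfertile heifers lay below the fertile median, which was so for 3.27% of all genes tested.

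MAFF averaged 8.12 ± 7.79 CPM (SD, n = 6) over the fertile heifers, against 2.40 ± 0.913 CPM (SD, n = 6) over the subfertile ones. The log2FC was -1.76 with a standard error of 0.55 and a 95% interval of -2.94 to -0.58, a level 3.38-fold lower in the subfertile group (edgeR, adjusted P = 0.9998). The unadjusted edgeR P was 0.00647, while the two-sided exact permutation test on mean log2 CPM gave P = 0.0649, short of 0.05. Without the fertile library LM1330, which held the highest MAFF level, the log2FC was -1.13 and the edgeR call held, with an exact permutation P of 0.123. Under voom the log2FC was -1.28 and the call was lost.

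UROS was higher in most subfertile heifers, at a level that edgeR did not call. It measured 11.8, 43.8, 53.4, 16.1, 42.3 and 23.9 CPM in fertile heifers LM1244, LM1247, LM1262, LM1286, LM1298 and LM1330. In subfertile heifers LM1246, LM1251, LM1259, LM1265, LM1283 and LM1313 it measured 57.6, 41.3, 44.3, 37.1, 84.4 and 43.7 CPM. The 3 lowest values of the 12 were all fertile, at LM1244, LM1286 and LM1330, and the other fertile heifers lay among the subfertile ones. All 6 subfertile heifers lay above the fertile median, which was so for 3.19% of all genes tested. The counts behind these levels ran from 223 in LM1244 to 1458 in LM1283.

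UROS averaged 31.9 ± 16.9 CPM (SD, n = 6) in the fertile group, and the subfertile average was 51.4 ± 17.6 CPM (SD, n = 6). The UROS log2FC was 0.69 with a standard error of 0.34 and a 95% interval of -0.03 to 1.41 (edgeR, adjusted P = 0.9998). The unadjusted edgeR P was 0.0581 and the two-sided exact permutation P was 0.0779. UROS sat close to the threshold, and DESeq2 (log2FC 0.69) and voom (log2FC 0.88) placed it among their calls, of which they made 230 (1.77%) and 143 (1.1%) over all genes. Without the highest subfertile library, LM1283, the edgeR log2FC was 0.49.

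**Figure D2:**
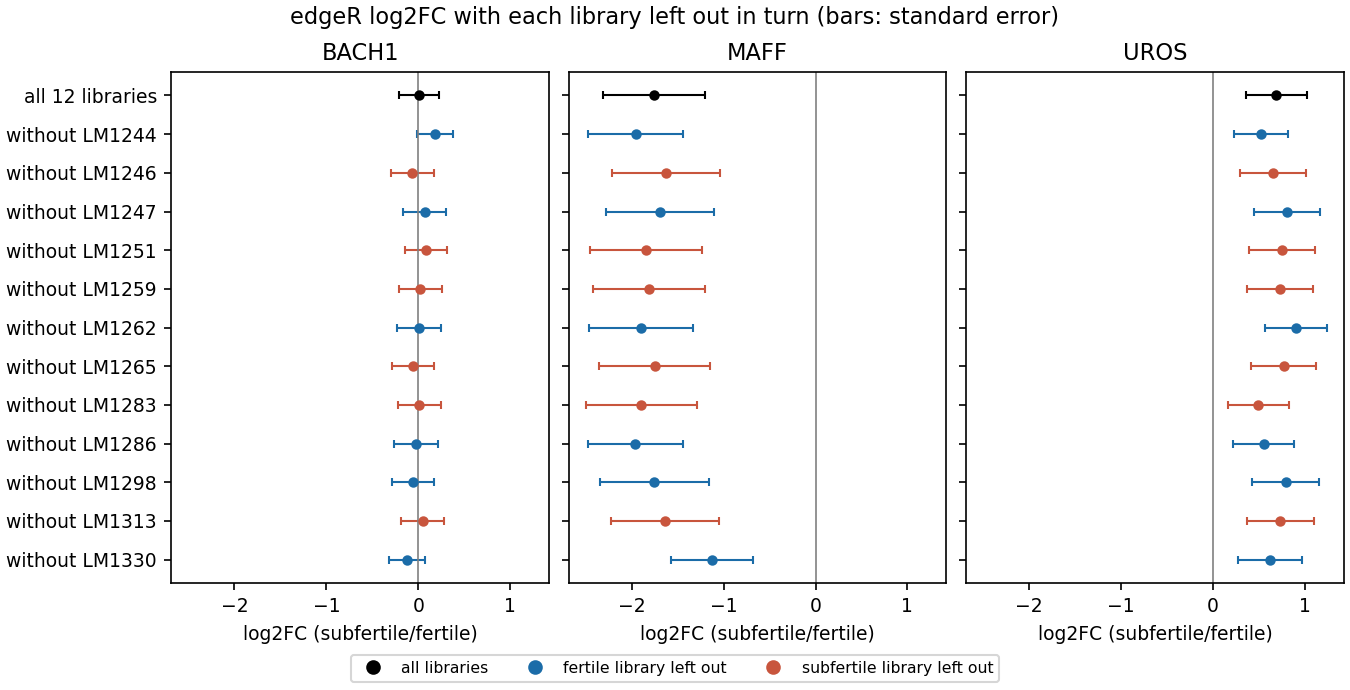
Log2FC (subfertile against fertile, edgeR) of each member over all 12 libraries and after removing any single library, where bars are standard errors and colour gives the group of the library left out. MAFF stayed between -1.96 and -1.13, UROS between 0.49 and 0.90, and BACH1 crossed 0, from -0.12 without LM1330 to 0.18 without LM1244.

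The members also varied between heifers of the same group more than most genes at their level. The biological coefficient of variation from edgeR was 62.7% for MAFF, above that of 95.5% of the 1187 genes within 0.5 log2 CPM of it, whose median was 31.7%. For UROS it was 40.4%, above 96.5% of the 2309 genes of similar level, with a median of 17.5%. For BACH1 it was 27.8%, above 76.6% of 1902 such genes, with a median of 22.1%. Within the fertile group the highest level was 11.1 times the lowest for MAFF, 4.53 times for UROS and 2.80 times for BACH1. Within the subfertile group these ratios were 2.66, 2.27 and 1.67. The fertile ratio of MAFF rests in part on LM1330, at 22.5 CPM, since the next highest fertile heifer, LM1247, was at 9.99 CPM.

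UROS was also read within the 2 sets of libraries split by the share of their most abundant gene, a split examined after the values of UROS had been seen. Among libraries with a low share, UROS was 11.8 to 23.9 CPM in the 3 fertile and 43.7 to 57.6 CPM in the 3 subfertile heifers, with no overlap, as was the case for 8.49% of all genes tested in this set. Among libraries with a high share, it was 42.3 to 53.4 CPM in the fertile and 37.1 to 84.4 CPM in the subfertile heifers, which overlapped. The log2FC of UROS was 1.5 (SE 0.32) in the low set (edgeR, adjusted P = 0.615) and 0.22 (SE 0.31) in the high set (adjusted P = 0.9998). In the low set the exact permutation test gave P = 0.1, the smallest that 3 heifers against 3 can give. The difference between the sets was 1.27 (SE 0.44, edgeR, adjusted P = 0.733). UROS was among the 6.41% of all genes that passed an unadjusted threshold of 0.05 in that test, and none passed adjustment. Since the values of UROS prompted the split, these numbers are a description. With the set as a term of the model, the log2FC of UROS over all 12 heifers was 0.85 (SE 0.28), past both thresholds. That term was also chosen after the values had been seen, so this value too is a description.

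The difference between the sets did not pass an adjusted P of 0.05 for any of the 3 members. The log2FC of MAFF was -2.29 in the low set and -1.3 in the high set (difference, adjusted P = 0.804). In the high set the 3 fertile heifers, at 3.88 to 9.99 CPM, did not overlap the 3 subfertile ones, at 2.35 to 3.47 CPM, as was the case for 9.61% of all genes tested in this set (exact permutation test, P = 0.1, the smallest possible). In the low set LM1244 and LM1286 lay within the subfertile range. BACH1 had a log2FC of 0.03 in the low set and -0.0090 in the high set (difference, adjusted P = 0.984). What sets the share of the most abundant gene was not tested.

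The other genes of the axis could be followed where the study's tables give a name for an identifier, which was so for 60 of the 219 genes in the lists used here. Most of those names come from tables selected on these libraries, so the lists are incomplete and not a neutral sample of each pathway. Over the 6 pathway lists with named genes, 31 genes were tested and 4 were called, MAFF, MAFK, SRXN1 and PGRMC1, all lower in the subfertile group. Without LM1330 the count was 2, MAFF and MAFK, without LM1246 it was also 2, and without LM1244 it was 7. The background for calls in that direction was 0.738% over all genes tested, and 2.69% over the 2902 tested genes with a name (78 genes), which is the set these lists could draw on.

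In heme synthesis, 3 of 9 enzymes had a name and none was called by edgeR. ALAD, which makes the pyrrole porphobilinogen upstream of UROS, had a log2FC of -0.34 (SE 0.23), or -0.20 without LM1246. FECH, ferrochelatase, which places iron in the finished ring, had a log2FC of 0.11 (SE 0.12), or 0.01 without LM1246, with 55.6 to 68.0 CPM in fertile and 49.7 to 88.2 CPM in subfertile heifers. The median log2FC of the list was 0.11, beside 0.0076 over all genes tested.

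In the CNC and MAF family, to which BACH1 and MAFF belong, 5 of 10 genes had a name and 2 were called. MAFK, the other small MAF protein called, ran from 4.70 to 11.4 CPM in fertile and from 3.78 to 5.81 CPM in subfertile heifers. Its log2FC was -0.68 with a standard error of 0.24 (edgeR, adjusted P = 0.9998), and its two-sided exact permutation P was 0.0238 beside an unadjusted edgeR P of 0.0130. MAFK was called with any single library left out, and its log2FC was -0.53 without LM1330. MAFG, the third small MAF protein, had a log2FC of -0.28 (SE 0.17), or -0.16 without LM1330, and was not called. Its level in LM1330, 20.4 CPM, stood apart from the other fertile heifers. NFE2L2, which encodes NRF2, had a log2FC of 0.10 (SE 0.19). The median over the family was -0.28, and -0.16 without LM1330. The estimates of all 3 small MAF genes were below 0 under TMM, RLE and library size scaling, and those of BACH1 and NFE2L2 were above 0 under all of these, but BACH1 turned below 0 in 5 of 12 fits with a single library left out and NFE2L2 reached -0.01 without LM1265.

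**Figure D3:**
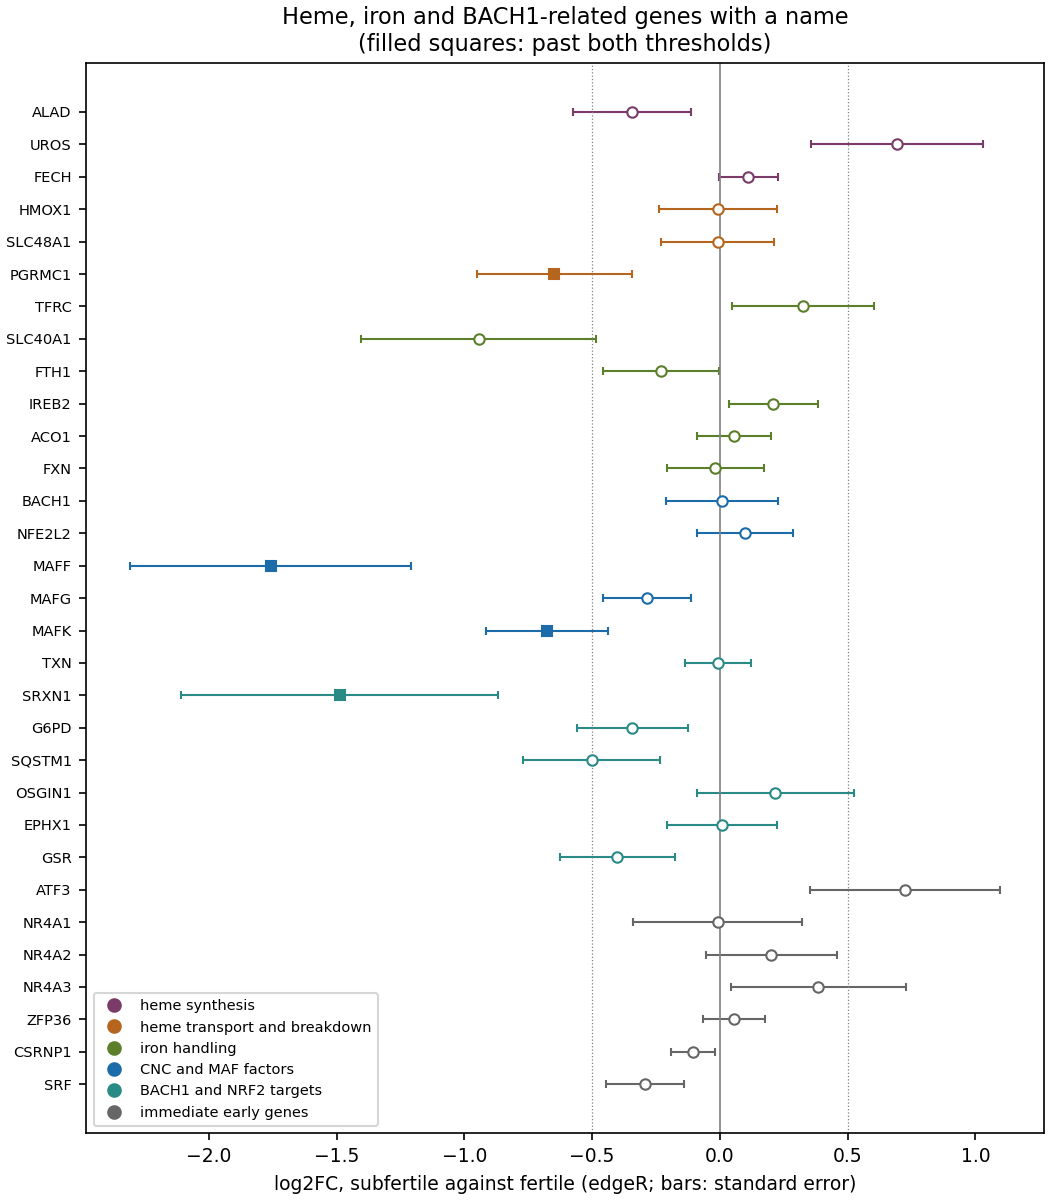
Log2FC (subfertile against fertile, edgeR) with standard errors for the named genes of 6 pathway lists, coloured by the first list that holds each gene. Filled squares passed both thresholds, and dotted lines mark a log2FC of 0.5 in either direction. The 4 called genes, PGRMC1, MAFF, MAFK and SRXN1, are all below 0, and BACH1 sits at 0.0089.

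Among 27 known targets of BACH1 and NRF2, 12 had a name, 9 had a log2FC below 0 and 1 was called. Under library size scaling TXN moved from below to above 0, and EPHX1 from above to below 0. HMOX1, which breaks heme down and is the best known target of BACH1, was 11.2 to 18.5 CPM in fertile and 7.71 to 23.6 CPM in subfertile heifers, with a log2FC of -0.0070 (SE 0.23). SRXN1, sulfiredoxin, which repairs oxidized peroxiredoxins, was called with a log2FC of -1.49 (SE 0.62). SRXN1 reached 211 CPM in LM1330 against at most 51.5 CPM elsewhere, and without that library the log2FC was -0.46. The call was made in 8 of 12 fits with a single library left out, and was lost without LM1330, LM1246, LM1251 or LM1259. It was also lost under voom, where the log2FC was -0.99. The two-sided exact permutation P of SRXN1 was 0.182, beside an unadjusted edgeR P of 0.0308. The median log2FC of the targets was -0.12, or -0.07 without LM1330. Without LM1244 edgeR called 4 of the 12 targets, in a fit that called 2.77% of all genes, and without LM1330 it called 0.

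Of 20 genes of heme transport and breakdown, 3 had a name. PGRMC1, a heme-binding membrane protein, was called with a log2FC of -0.65 (SE 0.30), but in only 3 of 12 fits with a single library left out, and neither under voom nor with RTS in the model. Its two-sided exact permutation P was 0.134. Its level reached 188 CPM in LM1330, and without that library its log2FC was -0.26. SLC48A1, which carries heme out of lysosomes, had a log2FC of -0.0090 (SE 0.22). The median of the 3 genes was -0.0090, or -0.08 without LM1330. In iron handling, 6 of 18 genes had a name and none was called by edgeR. The iron exporter SLC40A1 (ferroportin) had a log2FC of -0.94 (SE 0.46), and its level in LM1330, 582 CPM, was above the 251 CPM of the next library. Without LM1330 its log2FC was -0.43. The transferrin receptor TFRC had a log2FC of 0.32 (SE 0.28), or 0.12 without LM1259. The median of the iron list was 0.02, and without LM1330 it was -0.02, with 4 of 6 genes below 0. None of the 10 genes listed for the degradation of BACH1 had a name, so none was looked up.

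MAFF is also an immediate early gene, and the other genes of that class were read beside it. Of 29 such genes, 7 had a name and none was called by edgeR. ATF3, a stress-induced factor, had a log2FC of 0.72 (SE 0.37), with its lowest level, 0.786 CPM, in LM1330 and its highest, 7.58 CPM, in LM1283. It was 0.55 without LM1330 and 0.35 without LM1283. SRF, the serum response factor, had a log2FC of -0.29 (SE 0.15), or -0.16 without LM1330. The median over the class was 0.05, or 0.03 without LM1330.

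MAFF was high in heifers where platelet markers were high. Platelet markers are genes such as GP9 and GP5, of the von Willebrand factor receptor, and 11 of the 20 listed had a name. None of the 11 was called by edgeR over all 12 heifers, 3 were called by DESeq2, all 11 had a log2FC below 0, and their median was -0.92. Without LM1330 the median was -0.33, with 9 of 11 below 0, VWF at 0.22 and ITGA2B at 0.01, while without LM1244 edgeR called 8, in a fit that called 365 of 13163 genes (2.77%). GP5 had a log2FC of -1.87 and GP9 one of -1.22, and without LM1330 these were -0.52 and -0.33. The summed platelet level was 754, 3410, 2962, 2352, 3885 and 12423 CPM in fertile heifers LM1244, LM1247, LM1262, LM1286, LM1298 and LM1330. In subfertile heifers LM1246, LM1251, LM1259, LM1265, LM1283 and LM1313 it was 745, 2134, 1443, 4042, 3072 and 1906 CPM. The groups overlapped, and LM1265, with the second highest sum, had a MAFF level of 2.35 CPM.

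Across the 12 heifers the log2 level of MAFF correlated with the log2 platelet sum, with Pearson's r of 0.80 (permutation test, P = 0.00144, adjusted over the 3 members P = 0.00432) and Spearman's rho of 0.74 (permutation test, P = 0.00769, adjusted P = 0.0231). The r was 0.88 within the fertile and 0.57 within the subfertile group, and 0.88 and 0.28 within the low-share and high-share libraries. Without LM1330 and LM1246, the heifers farthest from the median platelet sum, r was 0.54 over 10 heifers and no longer passed the threshold (permutation test, P = 0.109), so the relation rests in part on those heifers. Over the 11 markers, the group-centred r with MAFF ran from 0.60 to 0.86. The correlations of the 3 members with the platelet sum were not among the planned tests, and no other marker sum was correlated with them. They are given as a description, and their adjustment covers the 3 members alone. The part of platelet RNA in the group difference of MAFF was not tested.

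BACH1 ran against the platelet sum, with r of -0.67 (permutation test, P = 0.0170, adjusted P = 0.0255) and rho of -0.37 (permutation test, P = 0.236, adjusted P = 0.353). This relation did not hold throughout, since r was -0.90 in fertile and -0.12 in subfertile heifers, and -0.95 in low-share and 0.52 in high-share libraries. Without LM1330 and LM1246 it was -0.35 (permutation test, P = 0.326). Leaving out single heifers, r was -0.44 without LM1330 (permutation test, P = 0.176) and -0.56 without LM1244 (permutation test, P = 0.0739), and it passed the threshold without any of the others, so the relation rests on LM1330 and LM1244. UROS had r of 0.08 with the platelet sum (permutation test, P = 0.806, adjusted P = 0.806) and rho of -0.17 (permutation test, P = 0.604, adjusted P = 0.604). Within the groups its r was 0.46 in fertile and -0.10 in subfertile heifers, within the low-share and high-share libraries it was -0.13 and -0.17, and without LM1330 and LM1246 it was 0.60 (permutation test, P = 0.0690).

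**Figure D4:**
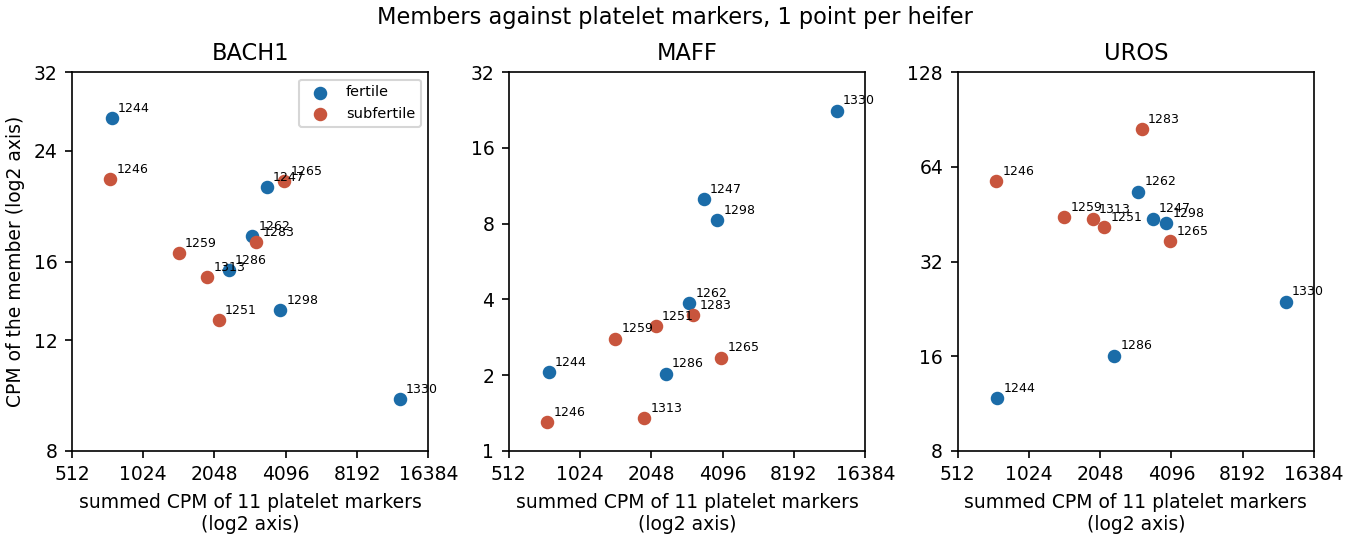
Level of each member against the summed level of 11 platelet markers, both in CPM on log2 axes, with 1 point per heifer, coloured by fertility group and marked with its library number. MAFF climbs with the platelet sum (r = 0.80), with LM1330 at the top right at 22.5 CPM, BACH1 is lowest in LM1330 at 9.67 CPM, and UROS is scattered (r = 0.08).

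The group differences of markers of other blood cells were read next. Of the erythroid markers, 3 of 22 had a name and EPB42, of the red cell membrane, was called lower (log2FC -0.96). The erythroid sum was 79.7 CPM in LM1330, 8.34 to 24.2 CPM in the other fertile heifers and 5.36 to 18.9 CPM in the subfertile ones. Without LM1330 EPB42 was not called (-0.75), and the log2FC of TRIM58 and TMCC2 was -0.45 and -0.18. The median over the 3 erythroid genes was -0.96, and no haemoglobin gene was among them. Of 4 named monocyte markers MS4A7 was called lower (-0.98), of 2 B cell markers PAX5 (-0.51) and of 4 NK cell markers GZMB (-1.0), by edgeR. With single libraries left out, MS4A7 was called in 12 of 12 fits (-0.57 without LM1330), and PAX5 and GZMB in 4 of 12 each (GZMB -0.66 without LM1247). In the same lists the log2FC of the monocyte markers VCAN, CD68 and FCN1 was 0.70, 0.08 and -0.19, that of the B cell marker CD79A -0.15, and that of the NK cell markers EOMES, TBX21 and PRF1 0.05, 0.0095 and -0.40, none of them called. None of the 3 neutrophil markers, S100A9 (0.21) and CXCR2 (0.15) among them, and neither of the T cell markers, CD2 (-0.19) and CD3E (-0.12), was called. The medians were -0.05 for monocyte, -0.33 for B cell, -0.20 for NK cell, 0.15 for neutrophil and -0.15 for T cell markers. Without LM1330 all 3 neutrophil markers were below 0. The medians were then -0.23 for monocyte, -0.30 for B cell, -0.11 for NK cell, -0.12 for neutrophil and -0.04 for T cell markers.

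BACH1 also varied with markers of other cells than platelets, given as group-centred r over the same 12 libraries and without a test. Its r was 0.87 with VCAN, 0.77 with FCN1, 0.42 with CD68 and -0.36 with MS4A7 among monocyte markers, and 0.52 to 0.65 with the 3 neutrophil markers. It was -0.61 with both T cell markers, -0.79 to -0.39 with the erythroid markers, -0.50 to -0.22 with the NK cell markers, and -0.61 (CD79A) and -0.02 (PAX5) with the B cell markers. With the 11 platelet markers it was -0.79 to -0.49. For MAFF the r was -0.70 to -0.20 with neutrophil, -0.50 to 0.68 with monocyte, 0.33 to 0.87 with erythroid, 0.23 to 0.63 with NK cell, 0.40 to 0.54 with T cell and -0.33 to 0.27 with B cell markers. For UROS it lay between -0.18 and 0.44 over all these lists other than the platelet one. The part of any of these cells in the levels of the members was not tested.

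Over all 12 heifers no pair of the 3 members had a correlation past the threshold. BACH1 and MAFF had r of -0.54 (permutation test, P = 0.0701, adjusted over 3 pairs P = 0.210) and rho of -0.39 (permutation test, P = 0.208, adjusted P = 0.623). Within the groups r was -0.67 in fertile and -0.36 in subfertile heifers, within low-share and high-share libraries it was -0.75 and -0.06, and without LM1330 and LM1244 it was -0.10. With a single heifer left out, it passed without LM1247 (r = -0.71, permutation test, P = 0.0142) and without LM1313 (r = -0.63, permutation test, P = 0.0396), and it was -0.19 without LM1330. For BACH1 and UROS r was -0.08 (permutation test, P = 0.805) and rho 0.17 (P = 0.590), with r of -0.23 and 0.14 within the fertile and subfertile groups, -0.14 and 0.0047 within the low-share and high-share libraries, and 0.22 without LM1330 and LM1244. For MAFF and UROS r was -0.02 (permutation test, P = 0.957) and rho 0.05 (P = 0.888), with r of 0.47 and 0.19 within the groups, -0.22 and -0.11 within the share sets, and 0.22 without LM1330 and LM1247. The adjusted P of both pairs was 0.957 for r, and it was 0.885 and 0.888 for rho.

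UROS and MAFF had log2FC of opposite sign, and their ratio within a heifer does not depend on library scaling. The log2 ratio of UROS over MAFF was 2.31 ± 1.24 (SD, n = 6), from 0.08 to 3.78, in fertile heifers. It was 4.46 ± 0.69 (SD, n = 6), from 3.72 to 5.46, in subfertile heifers. The groups overlapped between 3.72 and 3.78. The log2 ratio of UROS over BACH1 was -1.20 to 1.66 in fertile and 0.79 to 2.30 in subfertile heifers, and that of MAFF over BACH1 was -3.72 to 1.22 and -4.05 to -2.04, both with wider overlap. The differences were 2.15, 0.78 and -1.38 on the log2 scale. With a single heifer left out, that of UROS over MAFF ran from 1.71 to 2.45. That of UROS over BACH1 fell to 0.39 without LM1244, and that of MAFF over BACH1 was -0.82 without LM1330 and -1.81 without LM1244. The ratios were chosen after the levels had been seen and are given as a description.

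The genes with the pattern most like each member were taken by Pearson's r of group-centred log2 CPM over the 12 heifers, among 12377 genes with a mean of at least 1 CPM. For MAFF the 5 nearest genes had r between 0.92 and 0.95, and those with a name were the iron exporter SLC40A1 (0.94) and the kinase DYRK3 (0.92). For BACH1 the 5 nearest had r between 0.91 and 0.93, and the named gene among them was NAIP (0.92), a sensor of bacterial proteins in myeloid cells. For UROS the nearest gene was ENSBTAG00000013403 (0.94), and the next 4, between 0.82 and 0.84, had no name either. These values are the top of a long ranking and describe these 12 libraries only.

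The number of genes that each member tracked within a group was then counted, since the study builds its networks within groups. A connection was an absolute Pearson r of 0.95 or more over the 6 heifers of a group, on variance-stabilized counts. The study's networks also used a partial correlation method (PCIT), not applied here, so its connections are an unlike measure. BACH1 was connected to 193 genes among fertile heifers and to 25 among subfertile ones, where the median gene had 56 and 61. It was more connected than 92.8% of genes in the fertile group and than 14.0% in the subfertile group. The difference of 168 had P = 0.0346 in a two-sided exact permutation test over all splits of the heifers, and P = 0.104 adjusted over the 3 members. A difference at least as large in either direction was seen in 17.6% of all genes tested. The study also picked BACH1 by its co-expression in these libraries, so this test is not independent of the choice of gene.

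With 1 heifer left out of each group, all 36 combinations kept more BACH1 connections in the fertile group, with differences of 201 to 410. These counts are over 5 heifers a group and cannot be set beside the 168 over 6. Of all genes tested, 21.8% kept 1 sign over the 36 combinations, 5.94% with more connections among fertile heifers and 15.8% with more among subfertile ones. The fertile heifers also held the highest and the lowest BACH1 level, LM1244 and LM1330, and the part of that range in the count was not tested. MAFF was connected to 90 genes among fertile heifers and 44 among subfertile ones (exact permutation test, P = 0.762, adjusted P = 0.762). From its PCIT networks the study reports significantly fewer connections of MAFF among subfertile heifers. UROS had 44 and 20 (exact permutation test, P = 0.753, adjusted P = 0.762). Both differences changed sign when heifers were left out, MAFF ranging from -133 to 302 and UROS from -467 to 182.

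**Figure D5:**
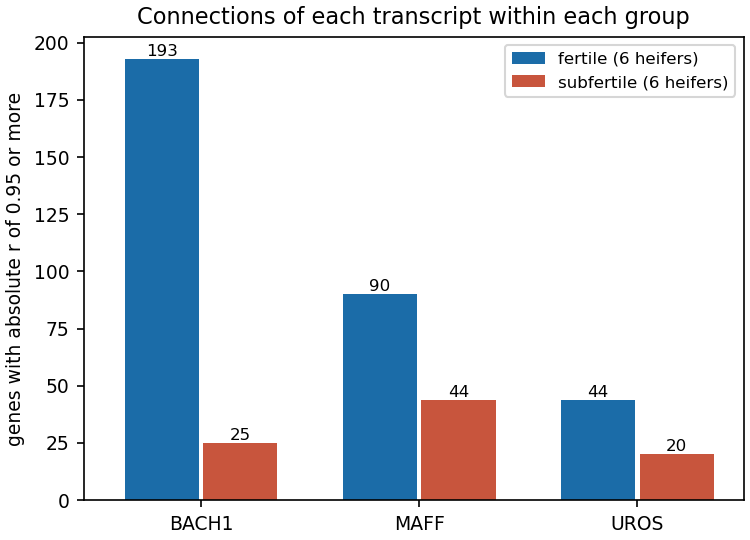
Number of genes with an absolute Pearson r of 0.95 or more with each member, within the 6 fertile and within the 6 subfertile heifers. BACH1 has 193 and 25, while MAFF (90 and 44) and UROS (44 and 20) differ by less.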

How the data were processed

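RNA from PWBCs of 6 fertile and 6 subfertile heifers was sequenced as strand-specific poly(A) libraries. The authors checked reads with FastQC 0.11.9 and MultiQC 1.12 and mapped them with STAR 2.7.5 to ARS-UCD1.3, and deposited raw counts per gene, not normalized. Which strand column was taken is not given in the sources used here.

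Genes were kept with filterByExpr (minimum count 10), scaled with TMM and tested with edgeR 4.0.16 in R 4.3.3, with group as the only term, and P was adjusted (Benjamini-Hochberg) over 13012 genes. Log2 CPM used a prior count of 2. Alternatives were DESeq2 1.42.0, voom with limma 3.58.1, other scalings and filters, RTS as a term and each library left out. Correlations used 100000 permutations in Python 3.11.15. The tests were checked on simulated data. Nothing in the sources pairs heifers across groups, and the library totals (14010736 to 21278761) set counting precision. Intervals cover the spread between heifers.

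The members and lists were chosen with earlier results of these data known. The genes named are the members, all named genes of the heme synthesis and CNC and MAF lists, of other lists those called or else the 2 with the largest absolute log2FC at a mean of at least 1 CPM, and the 5 genes most like each member, by symbol where they have one. HMOX1, SLC48A1, TXN, EPHX1, SQSTM1, VWF, ITGA2B, TRIM58, TMCC2, VCAN, CD68, FCN1, CD79A, EOMES, TBX21, PRF1, PADI4 and the most abundant gene were added after their values had been seen. Symbols came from the study's supplementary tables, which pair 2904 identifiers with a name. 1 gene of the lists is not reported here and was left out of their counts and medians. The protein measurements of the study were not used here.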

Additional observations from a re-analysis of the deposited data

Results flagged for a closer look

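In the fertile group the library LM1330 stood apart for 4 of the genes followed here. MAFG was at 4.36 log2 CPM there, with the next fertile heifer at 3.82. SQSTM1, the autophagy adaptor p62 and a target of NRF2, was at 10.0 log2 CPM against 8.83 in the next. MS4A7 was at 6.75 log2 CPM against 5.44, and ATF3 was low, at -0.15 against 1.12. In the subfertile group PRF1, perforin, was at 6.76 log2 CPM in LM1265 against 6.21 in the next heifer. These were 5 of 120 checks of a gene in a group, and chance alone would flag about 1 in 20 if the checks were independent. They were not, since each library entered many of them and 4 of the flags fell on LM1330.

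The group difference of UROS was 1.27 higher on the log2 scale in libraries with a low share of the most abundant gene than in those with a high share. It passed an unadjusted threshold but not adjustment (edgeR, adjusted P = 0.733). The split was chosen after the values of UROS had been seen, so the value is a description.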

How the results depend on the processing

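BACH1 was not called under any alternative run. Its log2FC turned below 0 in 5 of 12 fits with 1 library left out and ranged from -0.12 to 0.18 over them, and its exact permutation P ranged from 0.390 to 0.994. MAFF was called in all 12 such fits (-1.96 to -1.13) and in 7 of 8 other alternatives, but not under voom (-1.28), and at least 10 CPM in 9 libraries left it untested. Its exact permutation P ranged from 0.0303, without LM1244 or LM1286, to 0.123. UROS was called under DESeq2 (0.69), voom (0.88), library size alone (0.73), no filter except 1 count (0.69) and, chosen after seeing the data, the share of the most abundant gene as a term (0.85). It was called in 4 of 12 fits with 1 library left out, those without LM1247, LM1262, LM1265 or LM1298, over a range of 0.49 to 0.90, and its exact permutation P ranged from 0.0260 to 0.149. The cause was not tested.

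Over all genes, 182 calls became 624 with no filter except 1 count and 37 with at least 10 CPM in 9 libraries, which test other numbers of genes, and 118 (without LM1330) to 365 (without LM1244) with 1 library left out. Of the pathway genes 4 were called, against 6 with library size alone or no filter except 1 count, 5 under DESeq2, 2 under voom, 1 with at least 10 CPM, and 2 to 7 with 1 library left out, where 2 were left without LM1330 or LM1246 and 7 without LM1244. Platelet markers called went from 0 to 3 under DESeq2, 2 with library size alone or no filter except 1 count, 2 without LM1251 or LM1286, and 8 without LM1244. The r of BACH1 and MAFF ranged from -0.71 to -0.19 and passed the threshold without LM1247 or LM1313, that of BACH1 and UROS from -0.31 to 0.43 and that of MAFF and UROS from -0.20 to 0.22. The r of the platelet sum with UROS turned to -0.36 without LM1244, over a range of -0.36 to 0.34. With MAFF it ranged from 0.64 to 0.86, and with BACH1 from -0.78 to -0.44. The connection differences, with 1 heifer left out of each group (chosen after seeing the data, 5 heifers a group), were 201 to 410 (BACH1), -133 to 302 (MAFF) and -467 to 182 (UROS). At 25 to 60 counts, MAFF in subfertile libraries is limited by depth more than the other members. No paired analysis was possible because the groups hold different heifers and nothing in the sources pairs them.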
